A study of Drosophila melanogaster with 12 samples.

Results

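R-loop regions on the body of the X chromosome were examined in the genome-wide DNA:RNA hybrid immunoprecipitation (DRIP-seq) of *Drosophila* S2 cells. The peaks of the 4 lists obtained without RNase H (RNH) treatment were merged where they shared at least 1 bp, and a merged region was taken as a member when it started between positions 1500000 and 20400000 of X (dm3). This gave 808 members of 12155 merged regions. They lie on 18.9 Mb, which leaves out both ends of the chromosome, where 22 regions preceded the body and 100 followed it. The bodies of 2L, 2R, 3L and 3R, trimmed by 1.5 Mb at the telomeric end and 2 Mb at the centromeric end, held 5660 regions on 82.6 Mb and were used for comparison.

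S2 cells, an embryonic cell line, were depleted of the linker histone dH1 by 100 μg of dsRNA added on days 1, 4 and 7 of an 8-day culture, or received no dsRNA (untreated cells). The DNA of both conditions was digested with RNase A and sonicated to 500-1000 bp, and was then treated with 6 U of RNH (RNH-treated) or not (RNH-untreated) before it was precipitated with 4 μg of S9.6 antibody. Each condition had 2 biological replicates, and each replicate gave an RNH-treated library, an RNH-untreated library and an input. The values come from the 8 lists of peaks that the authors called, one per S9.6 library, with the replicate's own input as background. The depletion of dH1 could not be checked in these lists, which hold no level of the protein or its RNA.

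R-loops contain a DNA:RNA hybrid and a displaced DNA strand, and they arise during transcription. S9.6 antibodies bind the hybrid and RNH digests its RNA strand, so that RNH treatment tells R-loops from other sources of signal. S2 cells are of male type, in which the dosage compensation machinery binds along X and raises the transcription of its genes, and they carry X in fewer copies than the autosomes. Linker histone H1 binds the entry and exit of DNA at the nucleosome and is needed for compact chromatin.

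The lists give a position and a score for each peak and no reads, so the libraries have an unknown depth, on which peak numbers also depend. The score of a peak is 10 times the negative log10 of its *p*-value and grows with depth. It was therefore used only as a percentile or a filter within its own list. The whole RNH-untreated lists held 9368 and 5526 peaks in dH1-depleted cells and 4016 and 3807 peaks in untreated cells. The list of dH1-depleted replicate 1 stands apart, since its peaks are narrow. No source used here gives a reason, and it is not known whether this list was called with the same settings as the others. Its peak numbers, widths and percentiles are read with this limit, and the main results are also given without it.

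The X body held fewer peaks per Mb than the autosomal bodies in the 4 RNH-untreated lists. In dH1-depleted cells, 662 and 371 peaks lay on the X body in replicates 1 and 2, in front of 307 and 282 in untreated cells. Their density on X was 35.0 and 19.6 peaks per Mb in dH1-depleted cells, while the autosomal bodies of the same lists had 47.0 and 28.7 peaks per Mb. In untreated cells it was 16.2 and 14.9 peaks per Mb on X, and 24.1 and 22.2 peaks per Mb on the autosomal bodies. X ranked lowest of the 5 arms in each of these 4 lists. The ratio of the X density to the autosomal density was 0.745 and 0.683 in dH1-depleted cells and 0.673 and 0.671 in untreated cells, a mean of -0.53 ± 0.07 on the log2 scale (SD, n = 4 libraries). With 4 libraries, an exact 2-sided sign-flip test cannot go below *p* = 0.125, and it gave this value. The difference also held for merged regions, with 42.8 per Mb on X against 70.4 on 2L, 74.4 on 2R, 64.6 on 3L and 66.2 on 3R. Without dH1-depleted replicate 1, whose peaks are narrow, X had 27.1 merged regions per Mb and the autosomal bodies 40.6.

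**Figure D1:**
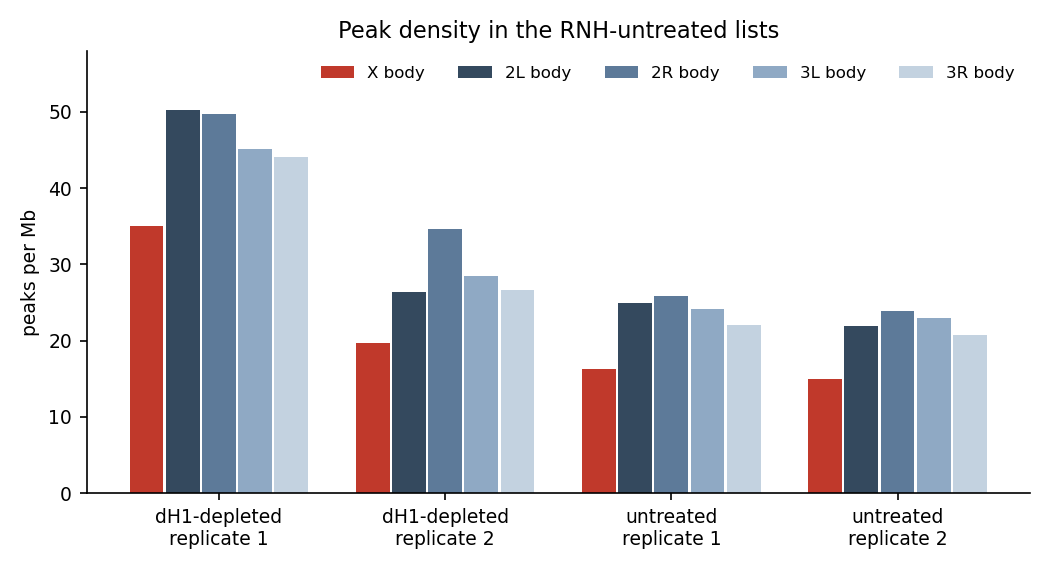
Peaks per Mb (y axis) on the bodies of X and of the 4 autosomal arms in the 4 RNH-untreated lists (x axis), 1 bar for each arm and list. The X bar is the lowest of the 5 in each list, at 35.0 and 19.6 peaks per Mb in dH1-depleted cells and 16.2 and 14.9 in untreated cells.

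The density ratio was higher at a score of 100 and above in each of the 4 lists, by most in the list of narrow peaks. Among peaks with a score of 100 and above, the ratio was 1.16 in dH1-depleted replicate 1, where X had 11.2 peaks per Mb and the autosomal bodies 9.68. It was 0.736 in dH1-depleted replicate 2, and 0.801 and 0.744 in untreated cells. A ratio above 1 was also found in dH1-depleted replicate 1, at 1.08, when the 3807 peaks of highest score were taken from each list. The lower density on X held at these stricter settings in 3 of the 4 lists. Without dH1-depleted replicate 1, the mean log2 ratio was -0.57 (n = 3).

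Peaks on X were slightly wider than those on the autosomes and ranked higher in their lists. In dH1-depleted cells, the median width on X was 238 bp in replicate 1 and 1331 bp in replicate 2, in front of 216 bp and 1294 bp on the autosomal bodies. In untreated cells, it was 1383 bp and 1358.5 bp on X, and 1271.5 bp and 1244 bp on the autosomal bodies. The mean log2 ratio of the widths was 0.11 ± 0.05 (SD, n = 4, exact sign-flip test, 2-sided, *p* = 0.125), which is a median width 1.08 times that of autosomal peaks. The median score percentile of X peaks was 47.7 and 47.4 in dH1-depleted cells and 48.9 and 44.6 in untreated cells, while that of autosomal peaks was 38.8 and 44.2 in dH1-depleted cells and 42.0 and 41.7 in untreated cells. The difference was 5.50 ± 2.89 percentile points (SD, n = 4, exact sign-flip test, 2-sided, *p* = 0.125). Without dH1-depleted replicate 1, it was 4.36 points, and the log2 ratio of the widths was 0.10 (n = 3 each). By single arm, X was not the highest in every list. In dH1-depleted replicate 2, the peaks of 2R were wider (median 1372 bp) and those of 3L ranked higher (percentile 48.3). In untreated replicate 2, the peaks of 2L and 3L ranked higher than those of X (percentiles 44.7 and 45.4). Percentiles were taken over the peaks of all sequences of a list, and those of both bodies fall under 50. A score of 100 and above was reached by 32.0% and 49.3% of the X peaks in dH1-depleted cells and by 45.6% and 41.8% in untreated cells. On the autosomal bodies, these shares were 20.6% and 45.8% in dH1-depleted cells, and 38.4% and 37.7% in untreated cells. The X share was thus above the autosomal share in each of the 4 lists, by most in the list of narrow peaks. In base pairs covered by peaks, the density of X was 0.889 and 0.730 times that of the autosomes in dH1-depleted cells, and 0.766 and 0.744 times in untreated cells.

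**Figure D2:**
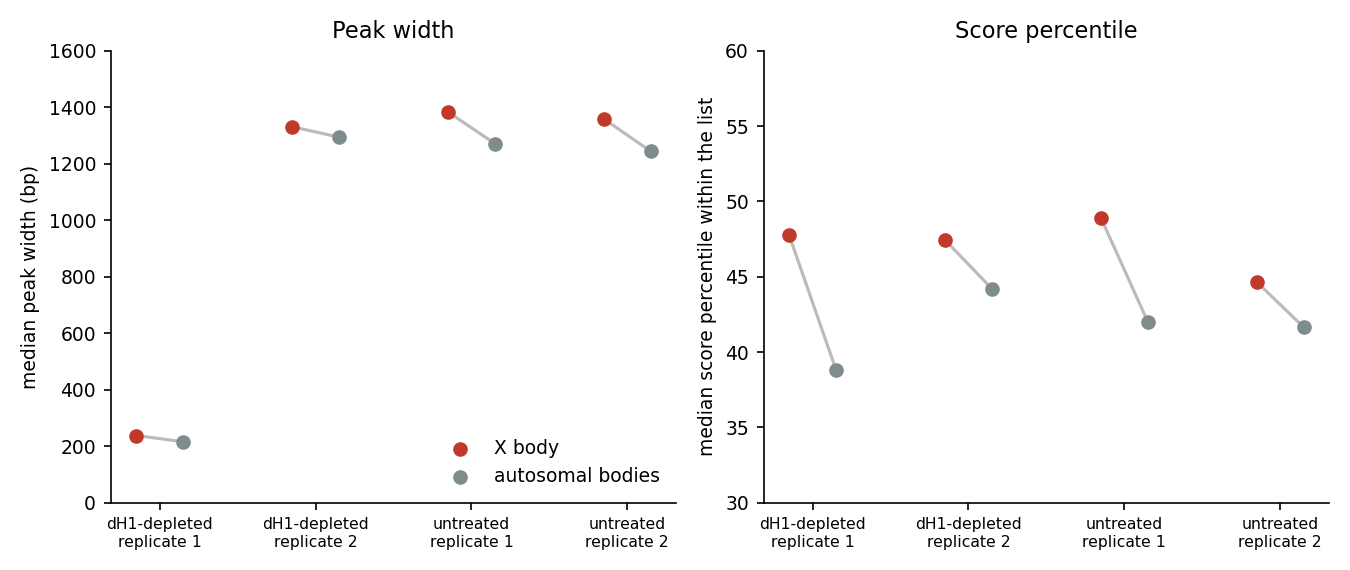
Median peak width in bp (left) and median score percentile within the list (right) of X body peaks and autosomal body peaks in the 4 RNH-untreated lists (x axis). Lines join the values of a list, and the X value is the higher of the pair in each list, for example 1383 bp and 1271.5 bp in untreated replicate 1.

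The members ranged from 98 bp to 8357 bp, with a median of 1064 bp, and covered 5.18% of the X body. The autosomal regions had a median of 1020 bp and covered 7.25% of their bodies. Of the 808 members, 293 (36.3%) were under 500 bp. Most members were found in few lists. A single list held 458 of them (56.7%), beside 62.1% of the autosomal regions. In 2, 3 and 4 lists, 134 (16.6%), 108 (13.4%) and 108 (13.4%) were found, beside 15.5%, 13.7% and 8.66% of the autosomal regions. Of the 458 members of a single list, 296 came from dH1-depleted replicate 1 (36.6% of all members, autosomal regions 40.8%) and 111 from dH1-depleted replicate 2 (13.7%, autosomal regions 13.3%). Untreated replicate 1 gave 31 (3.84%, autosomal regions 4.61%) and untreated replicate 2 gave 20 (2.48%, autosomal regions 3.46%). The members found in more lists were wider. A member spans all peaks joined into it, so its width is not independent of the number of lists. The median width was 248.5 bp for members of 1 list, 1269 bp for 2 lists, 1631 bp for 3 lists and 1967.5 bp for 4 lists, in front of 241, 1252, 1518.5 and 1908 bp for the autosomal regions. The low value for 1 list is that of the narrow peaks, since members found in dH1-depleted replicate 1 alone had a median of 210 bp, and those found in another list alone had medians of 1124 bp (dH1-depleted replicate 2), 1138 bp (untreated replicate 1) and 1021 bp (untreated replicate 2). When the list of narrow peaks was left out, 512 members were obtained, with medians of 1166, 1329 and 1817.5 bp for 1, 2 and 3 lists. Within each list, the peaks of members found in no other list ranked low, with median percentiles of 35.8 and 26.6 in dH1-depleted cells, and 20.9 and 16.0 in untreated cells.

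Replicates of untreated cells shared most of their X peaks. A peak of replicate 2 overlapped 73.0% of the X peaks of untreated replicate 1, and 79.1% of those of replicate 2 overlapped a peak of replicate 1. On the autosomal bodies, these shares were 69.0% and 75.2%. In dH1-depleted cells, 276 of 662 X peaks of replicate 1 (41.7%) were overlapped by a peak of replicate 2, and 172 of 371 peaks of replicate 2 (46.4%) by a peak of replicate 1. The corresponding autosomal shares were 29.4% and 33.9%. Between conditions, 193 of 371 X peaks of dH1-depleted replicate 2 (52.0%) overlapped a peak of untreated replicate 1, and 197 of 307 (64.2%) did so in the other direction. The autosomal shares for this pair of lists were 53.2% and 63.5%. The shares on X exceeded the autosomal ones by more than 10 points where the list of narrow peaks was one of the pair, as in the dH1-depleted replicates, and by 4 points or less between the untreated replicates.

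The regions called in all 4 RNH-untreated lists were 108 of 808 on X (13.4%, Wilson 95% interval 11.2-15.9%), in front of 8.66% of the autosomal regions and 12.9% of all merged regions. The interval covers counting error only, and regions are not replicates, so no test was made. The peaks in these members ranked high, with median percentiles of 70.0 and 74.3 in dH1-depleted cells and 74.4 and 67.6 in untreated cells. Over all members, the medians were 45.1 and 47.5 in dH1-depleted cells, and 48.9 and 45.0 in untreated cells. The list of narrow peaks divided them. It had 192 peaks in the 108 members, 44 of which held several, up to 6, and these peaks covered 20.9% of a member in the median. In the other 3 lists, the peaks covered 96.6%, 96.5% and 93.8%. Without dH1-depleted replicate 1, 158 of 512 members (30.9%) were found in the 3 remaining lists. The share was 29.7% of the autosomal regions and 33.0% of all merged regions. Without the list of narrow peaks, X was thus little above the autosomes and below all merged regions.

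The strongest of these members, by the percentile in the lowest-ranked of the lists, was X:9692280-9700110. Its score was 822.45 and 1249.70 in dH1-depleted cells and 1546.49 and 503.95 in untreated cells, so the 4 lists placed it at percentiles 97.1, 99.1, 99.5 and 94.6. The next was X:11527167-11535012, at percentiles 97.6 and 98.7 in dH1-depleted cells and 94.2 and 94.7 in untreated cells. Both lie in the stretch of X with the fewest regions, described below. The widest member, X:3647164-3655520 with 8357 bp, was at percentiles 95.3 and 98.1 in dH1-depleted cells and 93.4 and 95.98 in untreated cells. The list of narrow peaks held 6 peaks in it, which covered 6364 bp, while each of the other 3 lists held 1 peak of 8354, 8357 and 8157 bp. The other 2 of the 5 strongest, X:2683158-2687652 and X:2689659-2691602, lie about 2 kb apart in the densest window and are described with the RNH-treated lists. X:9692280-9700110 also had an RNH-treated peak, in untreated replicate 2 (score 84.31, percentile 23.9). The widest member had one in untreated replicate 1 (score 67.36, percentile 17.7), and X:11527167-11535012 had none. The 2 strongest members, with 7831 and 7846 bp, were the next in width. Genes at these positions were not assigned, because no dm3 annotation was used.

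The share of body peaks that lay on X differed little between the conditions. The X body held 14.6% and 13.5% of the body peaks of dH1-depleted cells and 13.4% and 13.3% of those of untreated cells. The Wilson 95% intervals of the 4 shares overlapped, from 13.6-15.6% and 12.3-14.9% in dH1-depleted cells to 12.02-14.8% and 11.9-14.8% in untreated cells. The difference of the log2 odds was 0.09, with *p* = 0.33 in an exact 2-sided permutation test, which cannot give less for 2 libraries against 2. Within replicate 1 the difference was 0.15 and within replicate 2 it was 0.03. The number of X peaks itself was higher by 0.75 on the log2 scale (exact permutation test, 2-sided, *p* = 0.33). The log2 counts were 9.37 and 8.54 in dH1-depleted cells (SD 0.59, n = 2) and 8.26 and 8.14 in untreated cells (SD 0.09, n = 2). The dH1-depleted replicates thus lay further apart than the means of the conditions. Without dH1-depleted replicate 1 the difference between conditions was 0.33, and without dH1-depleted replicate 2 it was 1.17. When the same number of peaks was taken from each list, it turned to -0.24. In base pairs covered, the sign was also negative. The peaks covered 212124 bp and 650261 bp of X in dH1-depleted cells and 555238 bp and 492548 bp in untreated cells, a difference of -0.49 in log2. This sign rests on the list of narrow peaks, since dH1-depleted replicate 2 alone was 0.31 above the untreated replicates in log2 of the base pairs covered.

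**Figure D3:**
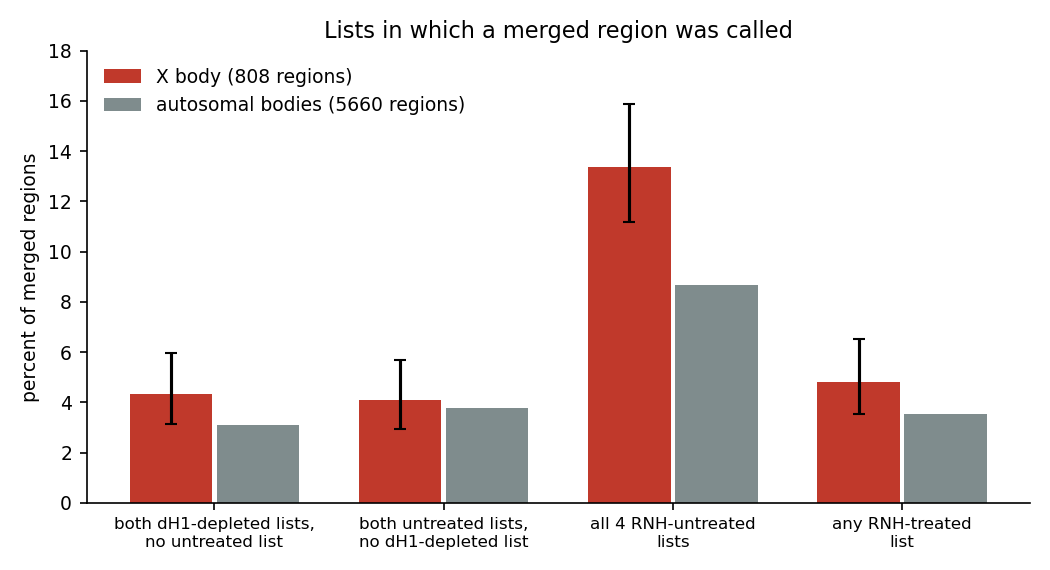
Share of merged regions in percent (y axis) that were called in the lists named on the x axis, for the X body (808 regions, with Wilson 95% intervals) and the autosomal bodies (5660 regions). The first 2 classes leave out regions with an RNH-treated peak of the same condition. X and the autosomes are set apart most for regions called in all 4 lists, 13.4% against 8.66%.

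Few members were particular to a condition. A member was counted as called only in dH1-depleted cells when both of their RNH-untreated lists, no untreated list and no RNH-treated list of dH1-depleted cells had a peak in it. This held for 35 members (4.33%, Wilson 95% interval 3.13-5.96%), beside 3.09% of the autosomal regions and 3.97% of all merged regions. Under the same rule with conditions exchanged, 33 members (4.08%, 2.92-5.68%) were called only in untreated cells, beside 3.78% of the autosomal regions and 2.39% of all merged regions. The interval for dH1-depleted cells holds the share of all merged regions, and the autosomal share lies just below it. The interval for untreated cells holds only the autosomal share. Without the RNH filter, the counts were 41 (5.07%, autosomal regions 3.32%, all merged regions 4.25%) and 33 (4.08%, autosomal regions 3.78%, all merged regions 2.41%). They also changed when the same number of peaks was taken from each list. In that case, 11 of 503 members (2.19%, autosomal regions 0.868%, all merged regions 1.35%) were only in dH1-depleted cells. Those only in untreated cells were 72 (14.3%, autosomal regions 14.0%, all merged regions 8.53%). The counts rest on both libraries of a condition. When dH1-depleted replicate 1 or 2 was left out, a peak in the remaining one was enough. The dH1-depleted class then held 145 of 512 members (28.3%, autosomal regions 26.9%, all merged regions 32.2%) and 345 of 717 members (48.1%, autosomal regions 51.0%, all merged regions 52.9%). The members only in untreated cells were then 63 (12.3%, autosomal regions 10.5%, all merged regions 7.60%) and 84 (11.7%, autosomal regions 14.5%, all merged regions 10.04%). Without untreated replicate 1 or 2, the counts only in untreated cells were 54 (6.84%, autosomal regions 7.62%, all merged regions 4.56%) and 64 (8.04%, autosomal regions 8.77%, all merged regions 5.29%).

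The strongest members called only in dH1-depleted cells ranked lower than the 5 strongest called in all lists. The 4 strongest were X:16237018-16238081, X:1638299-1639638, X:3510320-3511444 and X:3504207-3506236. The first had a score of 97.60 in replicate 1 and 156.70 in replicate 2, at percentiles 63.0 and 69.3 of these lists. The fourth had scores of 91.12 and 131.73, at percentiles 59.4 and 62.0, and it lies within 5 kb of the third, which had 91.38 and 162.62. The 4 strongest of those called only in untreated cells were X:3275797-3278527, X:15094772-15097997, X:3520634-3522792 and X:15053544-15057586. Scores of the first were 235.11 and 172.27, at percentiles 85.5 and 76.9, above those of any of the 4 dH1-depleted members in their own lists. The fourth had 188.24 and 117.26, at percentiles 79.8 and 61.8. The median width was 1193 bp for the 35 members of dH1-depleted cells and 1201 bp for the 33 of untreated cells, while that of the 108 members in all lists was 1967.5 bp.

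Members were unevenly distributed along X. In 18 whole windows of 1 Mb, the number of regions ranged from 10 to 129, with a median of 32 and a coefficient of variation of 0.805. In the 81 windows of the autosomal bodies, it ranged from 4 to 154, with a median of 65 and a coefficient of variation of 0.481. By arm, this coefficient was 0.588 on 2L, 0.341 on 2R, 0.636 on 3L and 0.314 on 3R, so X had the highest of the 5 arms. The SD itself was not higher on X, with 33.2 regions on X and 33.2 over the autosomal windows. It was 42.3 on 2L and 41.1 on 3L. The higher coefficient on X thus goes with its lower mean, 41.3 regions per window against 69.1 on the autosomes. Without the list of narrow peaks, the coefficient was 0.974 on X, where windows held 3 to 96 regions, and between 0.409 and 0.719 on the autosomal arms. The 3 densest X windows, X:2500001-3500000 with 129 regions, X:14500001-15500000 with 103 and X:1500001-2500000 with 75, held 307 members (38.0% of all). A run of 6 windows, X:6500001-12500000, held 81 members (10.0%), which is 13.5 per Mb against 102 per Mb in the 3 densest windows. The remaining 9.9 Mb held 420 members, or 42.4 per Mb. The last 0.9 Mb of the body held 65 of these.

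**Figure D4:**
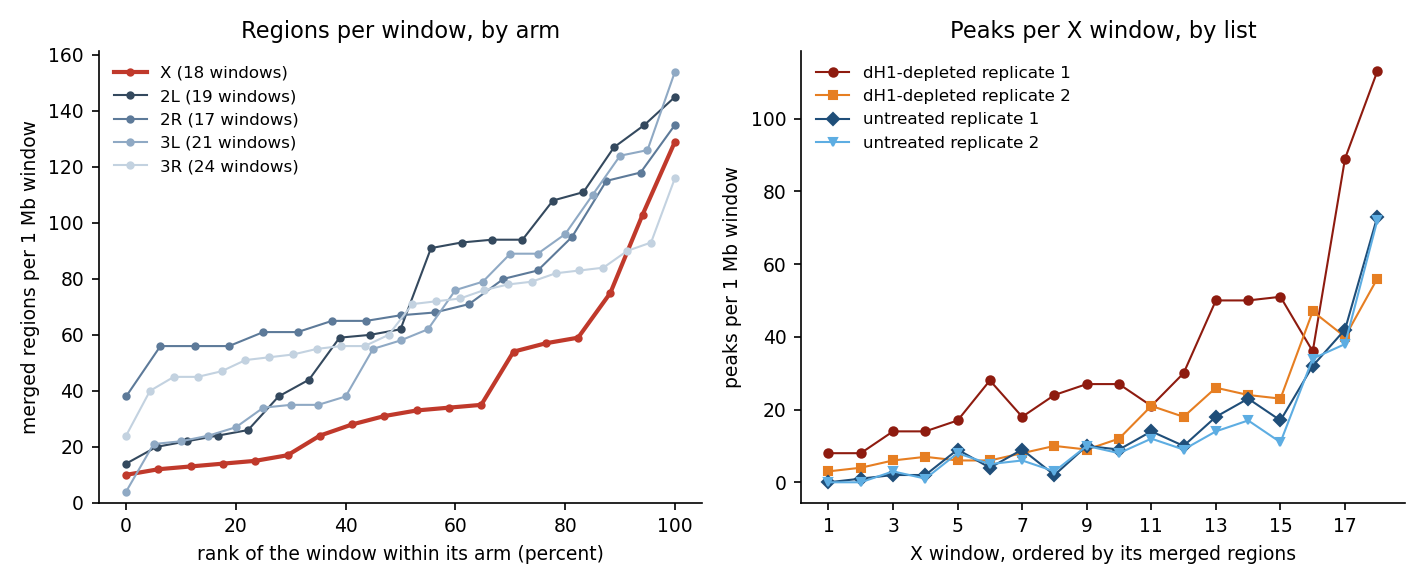
Left, merged regions per whole 1 Mb window (y axis) for X and the 4 autosomal arms, with the windows of each arm ordered from fewest to most (x axis, rank in percent). Right, peaks of each RNH-untreated list in the 18 X windows (y axis), ordered by the number of merged regions. The X curve has a median of 32 regions in front of 65 over the autosomal windows and ends at 129, and the 4 lists have their highest counts in the same window.

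The 4 lists placed their X peaks in the same windows. The densest window held 113 and 56 peaks in dH1-depleted cells, and 73 and 72 in untreated cells. The sparse run held 89 and 32 peaks in dH1-depleted cells, and 18 and 17 in untreated cells. Over the 18 windows, Pearson's r of the counts of a pair of lists was between 0.86 and 0.99, as a description, since the windows of a list share its library and those of a pair the same sequence. The pair with 0.99 was the untreated replicates and the pair with 0.86 the dH1-depleted replicates. As a median over windows, the counts of dH1-depleted cells were 27 and 11 peaks on X and 41 and 27 on the autosomes, and those of untreated cells were 9.5 and 8.5 on X and 22 and 20 on the autosomes. By these medians, chosen after the uneven distribution had been seen, the density ratio was 0.659 and 0.407 in dH1-depleted cells and 0.432 and 0.425 in untreated cells, a mean of -1.09 in log2. The ratio was thus further below 1 in the median window than over the whole body, in each list.

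The median gap between neighbours was 5373 bp on X and 6116 bp on the autosomal bodies, and 48.7% and 44.6% of the gaps were under 5 kb. 2L had a shorter median gap than X, with 5063 bp, and 49.5% of its gaps were under 5 kb. Long gaps were more frequent on X, with 38 of 807 gaps over 100 kb (4.71%) in front of 1.26% on the autosomes, where the share was between 0.229% on 2R and 2.11% on 2L. Without the list of narrow peaks, it was 9.20% on X and between 2.24% and 5.51% on the autosomal arms. The longest X gap, X:12279313-12799478, spanned 520166 bp across the end of the sparse run. A longer gap was found on 3L, with 775805 bp.

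The classes of members were also counted by stretch. In the 3 densest windows, 8 of 307 members (2.61%) belonged to the class of dH1-depleted cells and 17 (5.54%) to that of untreated cells. In the sparse run, these counts were 5 (6.17%) and 1 (1.23%) of 81, and in the rest of the body, 22 (5.24%) and 15 (3.57%) of 420. The same classes held 3.97% and 2.39% of all merged regions, and 3.09% and 3.78% of the autosomal ones. The share called in all 4 lists was 16.3%, 12.3% and 11.4% in the same order of stretches. Members of the sparse run had a median width of 409 bp in front of 1166 bp in the densest windows, and 69.1% of them came from a single list against 49.2%. Without the list of narrow peaks, the sparse run had 38 members with a median of 1329.5 bp, 55.3% of them from a single list, while the densest windows had 216 members with a median of 1437 bp, 37.5% from a single list. Density also differed in the same way in each list. Peaks per Mb in the sparse run were 14.8 and 5.33 in dH1-depleted cells and 3.00 and 2.83 in untreated cells, and in the 3 densest windows they were 79.3 and 47.7 in dH1-depleted cells and 49.0 and 48.0 in untreated cells. The median percentile of the peaks in the sparse run was 51.4 and 49.4 in dH1-depleted cells, and 55.9 and 69.3 in untreated cells. In the 3 densest windows, it was 51.4 and 49.9 in dH1-depleted cells, and 52.7 and 50.4 in untreated cells. These stretches were chosen from the counts they are described with, and no test was made.

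Few peaks were called on the X body after RNH treatment. After treatment, 11 and 35 peaks were left in dH1-depleted cells and 18 and 10 in untreated cells, in front of 662 and 371, and 307 and 282, in the RNH-untreated lists of the same replicates. This is 60.2-fold and 10.6-fold fewer in dH1-depleted cells, and 17.1-fold and 28.2-fold fewer in untreated cells. The mean change was -4.56 ± 1.07 on the log2 scale (SD over 4 pairs, *p* = 0.125 in an exact 2-sided sign-flip test), and -4.11 without dH1-depleted replicate 1 (n = 3). On the autosomal bodies, peaks were 111-fold and 8.13-fold fewer in dH1-depleted cells, and 39.1-fold and 47.1-fold fewer in untreated cells. The number of peaks after treatment also depends on the unknown depth.

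**Figure D5:**
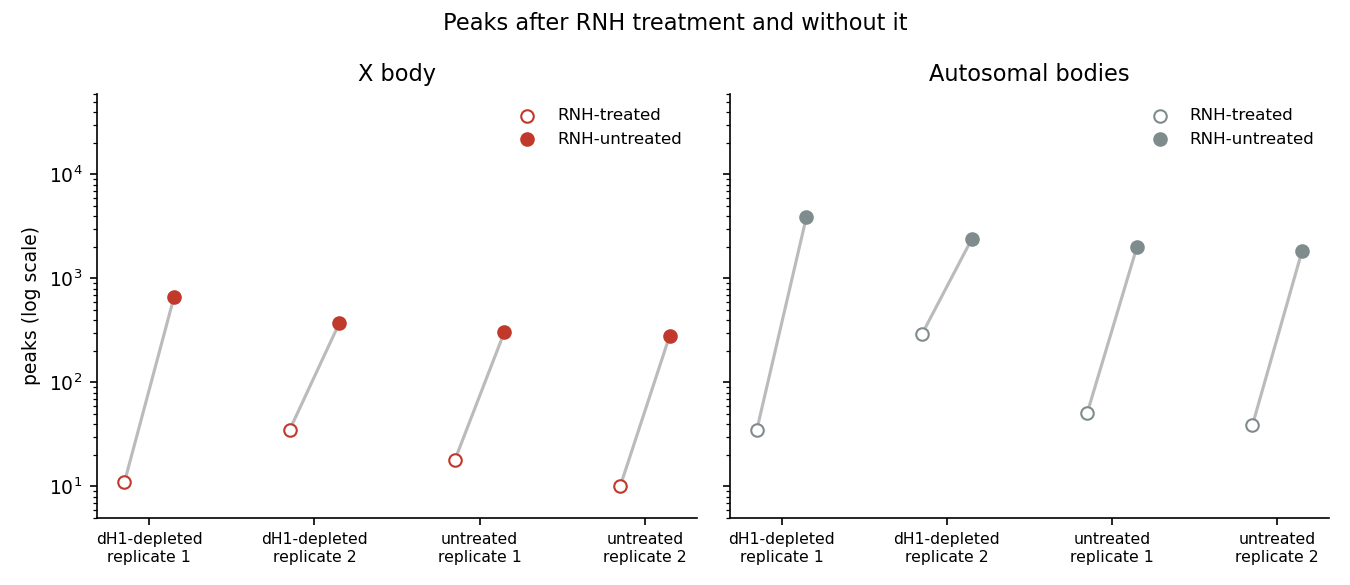
Number of peaks (y axis, log scale) on the X body (left) and on the autosomal bodies (right) in RNH-treated (open) and RNH-untreated (filled) lists, with lines between the lists of a replicate (x axis). On X, 10 to 35 peaks were left after treatment and 282 to 662 were called without it.

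The share of X among the body peaks was higher after treatment in 3 of the 4 pairs. It was 23.9% after treatment and 14.6% without it in dH1-depleted replicate 1, 26.1% and 13.4% in untreated replicate 1, and 20.4% and 13.3% in untreated replicate 2. In dH1-depleted replicate 2, it was 10.7% after treatment and 13.5% without it. The change in log2 odds averaged 0.61 ± 0.69 (SD over 4 pairs, *p* = 0.25 in an exact 2-sided sign-flip test), and leaving out one pair gave 0.94 without dH1-depleted replicate 2, 0.52 without dH1-depleted replicate 1, 0.41 without untreated replicate 1 and 0.56 without untreated replicate 2 (n = 3 each). Without both pairs of replicate 1 it was 0.18. The shares after treatment rest on 10 to 35 X peaks and their Wilson 95% intervals were wide, 13.9-37.9% and 7.80-14.5% in dH1-depleted cells and 17.2-37.5% and 11.5-33.6% in untreated cells. Per Mb, X had 0.582 and 1.85 RNH-treated peaks in dH1-depleted cells and 0.952 and 0.529 in untreated cells, while the autosomal bodies had 0.424 and 3.54 in dH1-depleted cells and 0.618 and 0.472 in untreated cells.

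Peaks that were left after RNH treatment were wide, on X and on the autosomes. On X, their median width was 3040 bp and 2314 bp in dH1-depleted cells and 3772 bp and 3761.5 bp in untreated cells, in all 4 lists above the X medians without treatment. On the autosomal bodies, it was 2927 bp and 2273.5 bp in dH1-depleted cells and 1983 bp and 1584 bp in untreated cells, also above the medians without treatment. Not all of them lay on a member. Of the 11 and 35 peaks of dH1-depleted cells, 8 and 18 overlapped a member, and of the 18 and 10 peaks of untreated cells, 15 and 10 did. A peak of the RNH-untreated list of the same replicate was overlapped by 6 and 16 of them in dH1-depleted cells, and by 9 and 7 in untreated cells. The list with the most RNH-treated peaks on X, that of dH1-depleted replicate 2, had 13 of its 35 in the last 0.9 Mb of the body and 11 in X:14500001-15500000.

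RNH-treated peaks overlapped 39 members (4.83%, Wilson 95% interval 3.55-6.53%), beside 3.52% of the autosomal regions and 11.3% of all merged regions. Of these 39 members, 23 had a peak in 1 RNH-treated list, 11 in 2 lists, 2 in 3 lists and 3 in all 4 lists. An RNH-treated peak that spans neighbouring members was counted for each of them, so members outnumber separate peaks. In dH1-depleted cells, 8 and 18 RNH-treated peaks overlapped 12 and 20 members. In untreated cells, 15 and 10 peaks overlapped 20 and 11 members. The autosomal bodies, with 5660 regions, had 2 regions with a peak in all 4 RNH-treated lists. The 3 X members were X:2683158-2687652, X:2689659-2691602 and X:5791804-5795330.

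These 3 members had top scores in the RNH-treated lists. A score cannot be compared between lists, only its rank within each. X:2683158-2687652 had a score of 3100 in each of the 4 RNH-treated lists, at percentiles 99.7 and 99.8 in dH1-depleted cells and 99.8 and 99.7 in untreated cells. Without treatment, its score was 426.11 and 3100 in dH1-depleted cells and 3100 and 3100 in untreated cells, and its peak was the highest on X in 3 of the 4 RNH-untreated lists. The low value is that of the list of narrow peaks, which held 5 peaks in it. X:2689659-2691602 had scores of 3100 and 3190.83 in RNH-treated dH1-depleted cells and 3100 and 3100 in RNH-treated untreated cells. Without treatment, it had 393.68 and 1660.05 in dH1-depleted cells and 867.41 and 727.91 in untreated cells. X:5791804-5795330 had 3100 in the 4 RNH-treated lists, and 94.73 and 3050.13 in dH1-depleted cells and 840.53 and 719.96 in untreated cells without treatment. Scores of 3100 are shared by several peaks of a list and have no order among them. The percentile of these 3 members was above 99 after RNH treatment in the 4 lists, and the sequences that they hold were not analysed here. X:2509652-2511283, with a peak in 3 RNH-treated lists, also held the highest X peak of dH1-depleted replicate 1 without treatment (score 1069.53). Its percentile was 71.3 after treatment and 98.2 without it in dH1-depleted replicate 1, 51.3 and 91.8 in untreated replicate 1, and 35.4 and 85.4 in untreated replicate 2. The other member with a peak in 3 RNH-treated lists, X:3308904-3315659, was named after its values were seen. In dH1-depleted replicate 2, its percentile was 68.1 after treatment and 13.5 without it. In untreated cells, it had RNH-treated peaks at percentiles 84.5 and 58.9 and no peak without treatment, while in dH1-depleted replicate 1 it had none after treatment and was at percentile 75.2 without it.

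The borders of the X body were set by position. The last region before it was X:1499621-1500648, found in 1 list, and the first member was X:1632111-1632272, also found in 1 list. At the other end, the last member was X:20379946-20381609, found in 3 lists, and the next region was X:20400324-20400597, found in 1 list.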

How the data were processed

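The authors aligned the reads to dm3 with Bowtie 0.12.5, keeping up to 10000 alignment sites of a read, removed duplicates with sambamba 0.5.1 and called peaks, per their methods with MACS 1.4, library by library, over the input of the replicate. They deposited a position and a score for each peak, which is at least 50 and not normalized between libraries. Since all sites of a read were kept, peaks on copies of a repeat share reads. Here, the 4 RNH-untreated lists were combined into regions. Arm lengths were the last peak end over the 8 lists. Positions are 1-based. Libraries were compared with exact sign-flip and permutation tests, whose smallest *p* is 0.125 for 4 libraries and 0.33 for 2 against 2. Wilson intervals cover counting error only. Regions named were the 5 strongest in all 4 RNH-untreated lists, the 4 strongest of each condition, the 3 widest, those in most RNH-treated lists and the highest X peaks. Members and lists were chosen with earlier results of these data known. Replicate numbers paired RNH-treated with RNH-untreated lists, but not dH1-depleted with untreated samples in the main tests. The correlation of deviations over members was -0.03, which cannot settle with 2 replicates per condition whether these samples were paired. Alternatives were a score of 100 and above, whole arms, equal numbers of peaks, base pairs, other overlaps and joins, widened narrow peaks, results without the list of narrow peaks (partly chosen after seeing the data), no RNH filter, the replicate block and leaving out libraries. The calculations (Python 3.11.15, NumPy 2.4.6, SciPy 1.17.1, pandas 2.3.3, matplotlib 3.10.9) were tested on simulated lists. The authors' differential analysis, gene locations, repeats and the input libraries were not analysed here.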

Additional observations from a re-analysis of the deposited data

How the results depend on the processing

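With 4 libraries, no test could pass a threshold of 0.05, so only directions and values can be compared between settings. The log2 ratio of the X to the autosomal density stayed negative in its 11 alternatives (-1.09 to -0.24), that of widths positive in 9 and the difference in percentile positive in 8. The X to autosomal ratio of densities was nevertheless above 1 in dH1-depleted replicate 1 at a score of at least 100 (1.16) and for lists of equal length (1.08). The direction of the difference in the number of X peaks between dH1-depleted and untreated cells (0.75) turned with equal numbers of peaks (-0.24) and in base pairs covered (-0.49). With the replicate number as a block, this difference and that of the X share keep their values of 0.75 and 0.09 by construction. The exact sign-flip test over 2 pairs gave *p* = 0.5 for each. This is the smallest value it can give, so no call could change. A score of 100 and above left 340 members. Of these, 13 were only in dH1-depleted cells (3.82%, autosomal regions 2.95%, all merged regions 3.60%). Only in untreated cells were 14 (4.12%, autosomal 5.10%, all merged 2.62%). All 4 lists held 38 (11.2%, autosomal 6.44%, all merged 13.5%), and 11 had an RNH-treated peak (3.24%, autosomal 2.95%, all merged 14.2%). Equal numbers of peaks gave 11 (2.19%, autosomal 0.868%, all merged 1.35%), 72 (14.3%, autosomal 14.0%, all merged 8.53%) and 58 (11.5%, autosomal 6.73%, all merged 14.0%) of 503 for the first 3 of these classes. The cause of these changes was not tested. Leaving out libraries gave 45 (5.65%, autosomal 4.15%, all merged 5.28%) to 381 members (54.8%, autosomal 57.5%, all merged 58.7%) only in dH1-depleted cells. Only in untreated cells were 54 (6.84%, autosomal 7.62%, all merged 4.56%) to 135 (19.4%, autosomal 24.8%, all merged 16.5%). All remaining lists held 119 (15.1%, autosomal 10.02%, all merged 14.4%) to 182 (39.1%, autosomal 39.0%, all merged 41.0%). An RNH-treated peak was found in 22 (4.72%, autosomal 3.84%, all merged 11.8%) to 36 (4.52%, autosomal 3.35%, all merged 10.9%). These counts moved since fewer lists then define a class. An overlap of 50% acts only on RNH-treated peaks, because a peak lies wholly in its region. Joining peaks only at an overlap of 50% of the shorter one, an alternative chosen after seeing the data, gave 813 members. Of these, 35 were only in dH1-depleted cells (4.31%, autosomal 3.04%, all merged 3.91%) and 33 only in untreated cells (4.06%, autosomal 3.86%, all merged 2.44%). All 4 lists held 107 (13.2%, autosomal 8.50%, all merged 12.7%), and 39 had an RNH-treated peak (4.80%, autosomal 3.53%, all merged 11.3%).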

Other observations

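The borders of the strongest members were close between lists of wide peaks. Among members called in all 4 RNH-untreated lists with 1 peak in each list of a pair, the starts differed by a median of 52 bp and the ends by 64 bp between dH1-depleted replicate 2 and untreated replicate 1 (105 members). Between dH1-depleted replicate 2 and untreated replicate 2 they differed by 70 bp and 64.5 bp (104 members), and between the untreated replicates by 36 bp and 41 bp (103 members). The peaks of these pairs shared a median of 89.9%, 90.2% and 94.0% of the stretch that either covered.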
